A study of Mus musculus with 6 samples.

Results

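The distal-less homeobox (Dlx) family is a group of 6 mouse genes, Dlx1 to Dlx6, and its members were taken by gene symbol from the platform's probe annotation. That annotation held 6 of 25697 probes for them: 1 each for Dlx1, Dlx2, Dlx3 and Dlx4, and 2 for Dlx5. Dlx6 was not analysed here. RNA was measured on Illumina bead arrays in 3 samples of molar cementoblasts, the cells that lay cementum on the tooth root, and in 3 samples of calvarial osteoblasts, which form the flat bone of the skull. Both groups were GFP-positive cells sorted by flow cytometry from C57Bl6/J mice of mixed sex and of genotype OC-GFP, in which osteocalcin expression is reported by fluorescence. The cementoblast samples pooled 7, 10 and 6 mice and each osteoblast sample pooled 6, all aged between 5 and 7 weeks. The labels do not say whether mice or days were shared between the tissues, so p-values measure the spread between these pools. Handling differed in one respect that the labels give: calvaria had a first short digest that was discarded, a step not given for the teeth.

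Dlx proteins are transcription factors that bind DNA through a homeodomain. The genes lie in neighbouring pairs, Dlx1 with Dlx2, Dlx3 with Dlx4 and Dlx5 with Dlx6, on mouse chromosomes 2, 11 and 6, and in the RefSeq annotation of GRCm38.p6 no other protein-coding gene starts between the members of a pair. In the embryo the nested expression of these pairs patterns the upper and lower jaw, and mice lacking both Dlx1 and Dlx2 fail to form upper molars. Dlx3 and Dlx5 are also known as regulators of bone formation, Dlx3 being mutated in human tricho-dento-osseous syndrome. The labels do not say whether upper or lower molars were taken.

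Dlx1 was higher in cementoblasts and was the one Dlx gene past the test. Dlx2 was detected on every cementoblast array and on no osteoblast array, and a Dlx5 probe showed the opposite pattern of detection. Dlx3 was detected on all 6 arrays with no difference past the test, and Dlx4 was detected on none. A probe counts as detected at a detection p under 0.05, the share of negative controls that are at least as bright. Of 8111 genes tested with limma, 0.321% passed at a Benjamini-Hochberg adjusted p under 0.05, with 12 (0.148%) higher and 14 (0.173%) lower in cementoblasts. Of the 4 Dlx genes tested, 1 passed, Dlx1. At an unadjusted p under 0.05 stood Dlx1 and Dlx2, both higher, against 6.92% of all genes in either direction and 3.48% higher. Arrays of the groups did not overlap for Dlx1 and Dlx2 (higher, as for 5.72% of all genes) and Dlx5 (lower, as for 5.57%, though its groups overlapped under 75th percentile scaling). Dlx1 and Dlx2 passed the filter, detection on at least 3 arrays, through their cementoblast arrays and Dlx5 through its osteoblast arrays, so these counts over the tested members support nothing about the family.

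**Figure D1:**
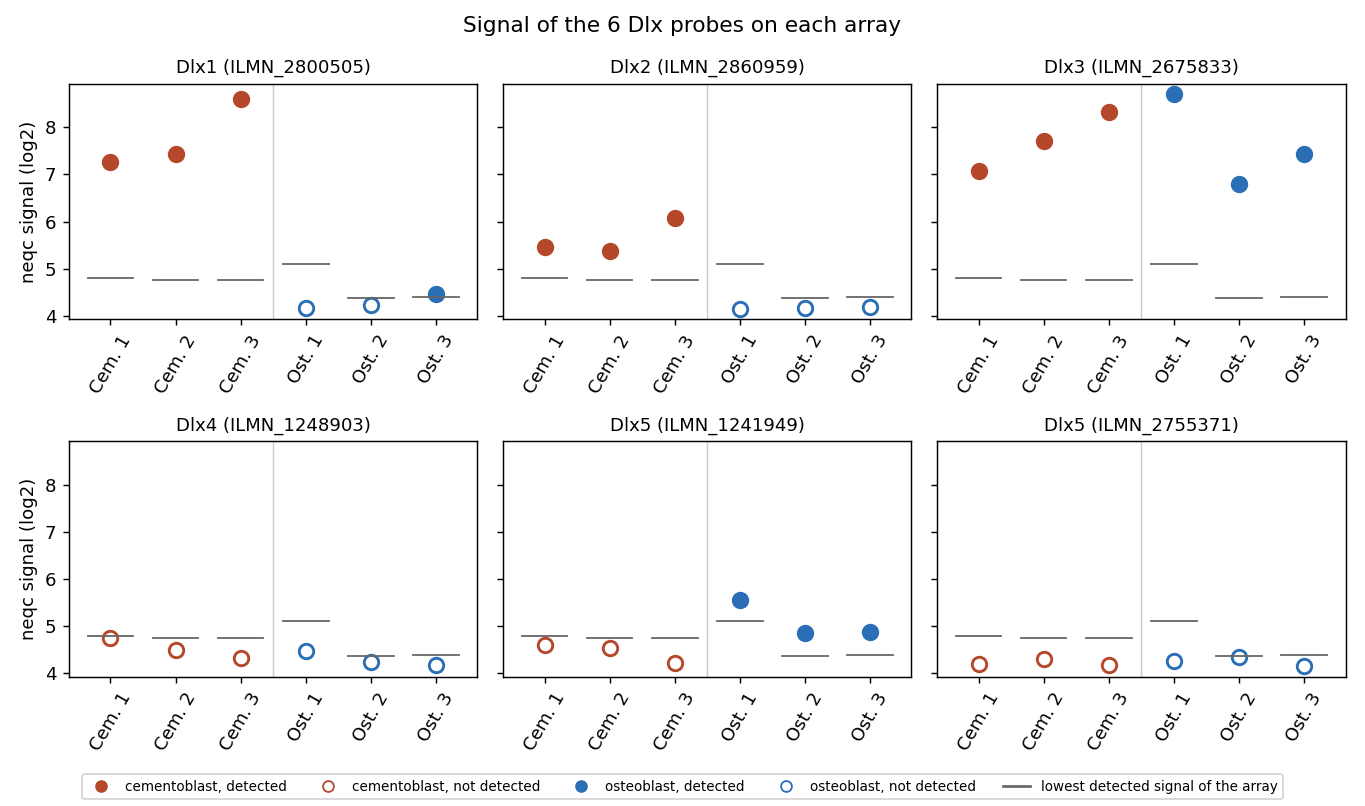
Log2 signal (vertical axis) of each of the 6 Dlx probes on the 3 cementoblast arrays (left) and the 3 osteoblast arrays (right), with filled points for detected signals, open points for undetected ones and a short line at the lowest detected signal of each array. Dlx1 and Dlx2 lie above that line on all 3 cementoblast arrays, the first Dlx5 probe on all 3 osteoblast arrays, Dlx3 on all 6 and Dlx4 on none.

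The arrays differed in how much they detected, from 9791 to 10059 probes on cementoblast arrays and from 8480 to 13347 on osteoblast arrays. The lowest detected signal lay between 4.75 and 4.80 on the log2 scale on cementoblast arrays and between 4.37 and 5.11 on osteoblast arrays, with osteoblast replicate 1 at 5.11. All 6 osteoblast markers, among them Col1a1 and Sp7, were detected on every array. Of 6 markers of periodontal ligament and tendon, 2, 3 and 3 were detected on cementoblast replicates 1, 2 and 3, against 3, 4 and 5 on osteoblast replicates 1, 2 and 3. Tnn and Mkx were detected on all 6 arrays, Scx on 5, Aspn on 2, Tnmd on 1 and Postn on 0. Postn, undetected in both groups, does not tell whether ligament cells were present. Markers of other cells differed within the groups and are given beside the results they touch.

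Dlx1, which takes part in patterning the upper jaw and its molars, had log2 signals of 7.25, 7.43 and 8.59 on cementoblast replicates 1, 2 and 3, against 4.17, 4.23 and 4.46 on osteoblast replicates 1, 2 and 3 (probe ILMN_2800505). Every cementoblast array lay above every osteoblast array, and cementoblast replicate 3 was the highest. Before any normalization, the Dlx1 signal was 1.39, 1.47 and 3.24 times the median probe of its array in cementoblasts, against 0.948, 0.942 and 1.03 times in osteoblasts. By rank, Dlx1 lay at percentile 89.2, 90.4 and 95.9 of the probes of its array in cementoblasts, against percentile 11.01, 29.5 and 53.0 in osteoblasts. In osteoblasts it was detected on 1 array, replicate 3, at a detection p of 0.0251, and on none at a detection p under 0.01.

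The difference in Dlx1, cementoblast minus osteoblast, was 3.47 on the log2 scale (SE 0.38, 95% interval 2.60 to 4.34, n = 3 per group; limma adjusted p = 0.0168). It is taken against signals near background and is no measured fold. The groups did not overlap, which held for 11.3% of all genes. The call depended on the filter on detection, which Dlx1 passed through its cementoblast arrays: with no filter the difference was the same and its adjusted p was 0.109 over 16593 genes. The difference kept its direction in all 19 other settings tried, between 1.41 and 4.30, but its adjusted p was over 0.05 in 10 of them. The value of 4.30 came from a setting with 1 cementoblast array, replicate 3. With 1 array left out, the adjusted p was 0.112 without cementoblast replicate 2 and 0.0709, 0.0903 and 0.0816 without osteoblast replicates 1, 2 and 3, and the call held without cementoblast replicate 1 (0.0452) or 3 (0.00240).

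Dlx2, the neighbour of Dlx1 and its partner in upper jaw patterning, had log2 signals of 5.45, 5.38 and 6.06 on cementoblast replicates 1, 2 and 3, against 4.15, 4.16 and 4.19 on osteoblast replicates 1, 2 and 3 (probe ILMN_2860959). All 3 cementoblast arrays were again above all 3 osteoblast arrays, with cementoblast replicate 3 the highest. The Dlx2 signal was 1.07, 1.06 and 1.25 times the median probe of its array in cementoblasts, against 0.940, 0.902 and 0.881 times in osteoblasts, which is faint in both. Detection p-values were 0.00501, 0.00376 and 0 in cementoblasts, against 0.870, 0.769 and 0.615 in osteoblasts. Detection on all arrays of cementoblasts and none of osteoblasts was found for 0.108% of the 23978 probes with a gene symbol.

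Under the main processing, the lower bound on the Dlx2 fold was 2.01, taken against the mean edge of detection of the osteoblast arrays. Those edges ran from 4.37 to 5.11. The Dlx2 difference of 1.46 (SE 0.27, n = 3 per group) did not pass over all genes (limma adjusted p = 0.0960, unadjusted p = 0.000643). On the log2 scale it was smaller with the submitters' values, at 0.87, and with no background correction, at 0.46, so the bound holds for the main processing alone. The direction was the same in all 19 other settings, and it passed in 3 of them, with array weights (adjusted p = 0.0160), with a number in the sample titles, which replicates 2 and 3 share between tissues, as a random block (0.0362) and without cementoblast replicate 3 (0.0469).

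**Figure D2:**
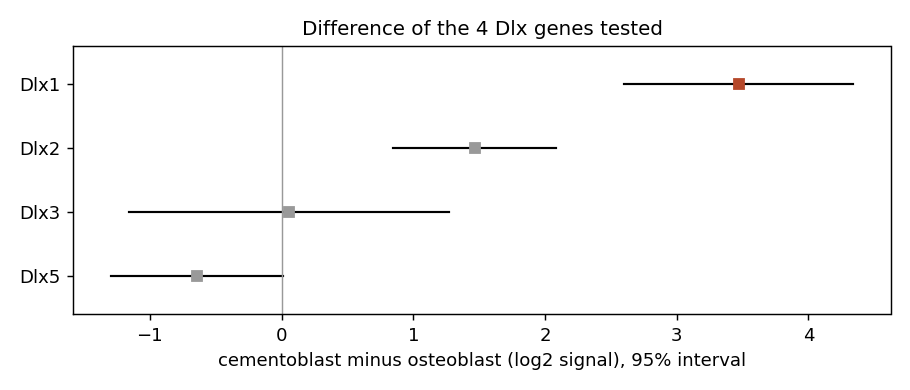
Difference in log2 signal, cementoblast minus osteoblast (horizontal axis), for the 4 Dlx genes tested, with lines for the 95% interval of each gene on its own and red for an adjusted p under 0.05 over all genes. Dlx1 passed, at 3.47. The interval of Dlx2 lies above 0 although its adjusted p is 0.0960, and those of Dlx3 and Dlx5 hold 0, the sign of both turning under 75th percentile scaling (Dlx3 at -0.30, Dlx5 at 0.27).

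Promoter windows were matched for 2 of the 6 members, the neighbours Dlx1 and Dlx2, and these are shown for that reason. Both are from RefSeq on GRCm38.p6, from 250 bases before to 50 after the gene's start, at chr2:71529195-71529494 on the plus strand for Dlx1 and chr2:71546705-71547004 on the minus strand for Dlx2. Capitals mark matches, on either strand, to TAATTA (a core bound by homeodomains), to TATAAA (the TATA box), to CCAAT (the CAAT box), to GGGCGG (a GC box) or to CACGTG (an E-box); no match overlaps another.
Dlx1: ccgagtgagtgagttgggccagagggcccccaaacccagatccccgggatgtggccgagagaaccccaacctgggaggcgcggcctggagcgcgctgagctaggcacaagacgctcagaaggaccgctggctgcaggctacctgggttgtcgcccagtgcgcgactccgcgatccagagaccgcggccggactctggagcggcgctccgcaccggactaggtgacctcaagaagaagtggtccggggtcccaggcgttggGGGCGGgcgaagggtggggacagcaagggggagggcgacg
Dlx2: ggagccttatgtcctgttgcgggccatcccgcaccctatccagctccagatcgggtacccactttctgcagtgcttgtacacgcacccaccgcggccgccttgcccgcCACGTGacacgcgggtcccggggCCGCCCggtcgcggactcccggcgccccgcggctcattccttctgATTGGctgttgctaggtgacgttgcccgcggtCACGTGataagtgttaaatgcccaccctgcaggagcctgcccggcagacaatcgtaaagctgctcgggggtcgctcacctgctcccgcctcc
Both windows are rich in G and C, at 69.3% for Dlx1 and 66.3% for Dlx2, against a median of 52.7% over 32817 windows of the same length. Each holds 1 GC box, which 35.6% of all windows hold. The E-box occurs 2 times and the CAAT box 1 time in the Dlx2 window and neither occurs in that of Dlx1, where 7.15% and 37.4% of all windows hold them. Neither window holds the homeodomain core or the TATA box, found in 5.30% and 13.6% of windows. A match describes the letters and is no evidence of binding.

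Dlx1as, the antisense transcript of the Dlx1 locus and the only noncoding Dlx gene of the 4 listed that was analysed here, stayed near background. Its log2 signals were 4.22, 4.21 and 4.96 on cementoblast replicates 1, 2 and 3, against 4.37, 4.24 and 4.44 on osteoblast replicates 1, 2 and 3. The groups overlapped, and it was detected on replicate 3 of each group alone, so it was not tested.

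Dlx3, a regulator of bone, tooth and epidermal differentiation, was detected on all arrays of both groups. Log2 signals were 7.07, 7.70 and 8.31 on cementoblast replicates 1, 2 and 3, against 8.70, 6.79 and 7.44 on osteoblast replicates 1, 2 and 3 (probe ILMN_2675833). The groups overlapped, with the highest and the lowest value both on osteoblast arrays. Dlx3 averaged 7.70 ± 0.62 in cementoblasts, against 7.64 ± 0.97 in osteoblasts (SD, n = 3 each). Before normalization, the Dlx3 signal was 1.33, 1.596 and 2.82 times the median probe of its array in cementoblasts, against 2.22, 2.59 and 5.30 times in osteoblasts, which leans towards osteoblasts with overlapping groups. The normalized means differed by 0.06 (95% interval -1.16 to 1.27; limma adjusted p = 0.997). The interval reaches past 1 on the log2 scale on either side, and the sign turned in 5 of 20 other settings, between -0.37 and 0.90.

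Markers of oral epithelium differed within the cementoblasts. Cementoblast replicates 1, 2 and 3 had 7, 6 and 0 of the 8 measured epithelial markers above detection, against 0, 1 and 0 for osteoblast replicates 1, 2 and 3. Krt14, a keratin of basal epithelium, stood at 11.57, 11.18 and 4.47 in cementoblasts and at 4.41, 4.49 and 4.17 in osteoblasts. Endothelial markers differed too, with 7, 7 and 0 of 8 detected on cementoblast replicates 1, 2 and 3, against 2, 5 and 7 on osteoblast replicates 1, 2 and 3. Because the cementoblast arrays differ in these markers, the Dlx differences were also taken with cementoblast replicate 3 alone, a setting chosen after the values were seen. With 1 cementoblast array it is given by size alone, though it is counted among the other settings tried. The differences were 4.30 for Dlx1, 1.90 for Dlx2, 0.68 for Dlx3 and -0.87 for Dlx5. Among the cementoblast arrays, replicate 3 was the highest for Dlx1, Dlx2 and Dlx3 and the lowest for Dlx5. Each difference was therefore bound to be larger in size than with all cementoblast arrays. These sizes say nothing about the part of the epithelial and endothelial markers, which was not tested.

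Neutrophil markers were detected on every array, 8 of 8, at mean log2 signals of 11.95, 10.32 and 8.23 on cementoblast replicates 1, 2 and 3, against 6.95, 10.24 and 9.78 on osteoblast replicates 1, 2 and 3. The 2 arrays with the lowest neutrophil means, osteoblast replicate 1 and cementoblast replicate 3, were the 2 with the highest normalized Dlx3. The same 2 arrays had the highest means of the 6 osteoblast markers. The mean was 12.37 on cementoblast replicate 3 (11.31 and 10.82 on replicates 1 and 2). On osteoblast replicate 1 it was 12.10 (11.70 and 11.83 on replicates 2 and 3). The order of Dlx3 was another before normalization, relative to the median probe of each array. It was then highest on osteoblast replicate 3 (5.30 times), against 2.82 on cementoblast replicate 3 and 2.22 on osteoblast replicate 1. In pooled cells, fewer cells of a type and less RNA per cell cannot be told apart. The part of the neutrophil, osteoblast, epithelial and endothelial markers in the Dlx values was not tested.

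**Figure D3:**
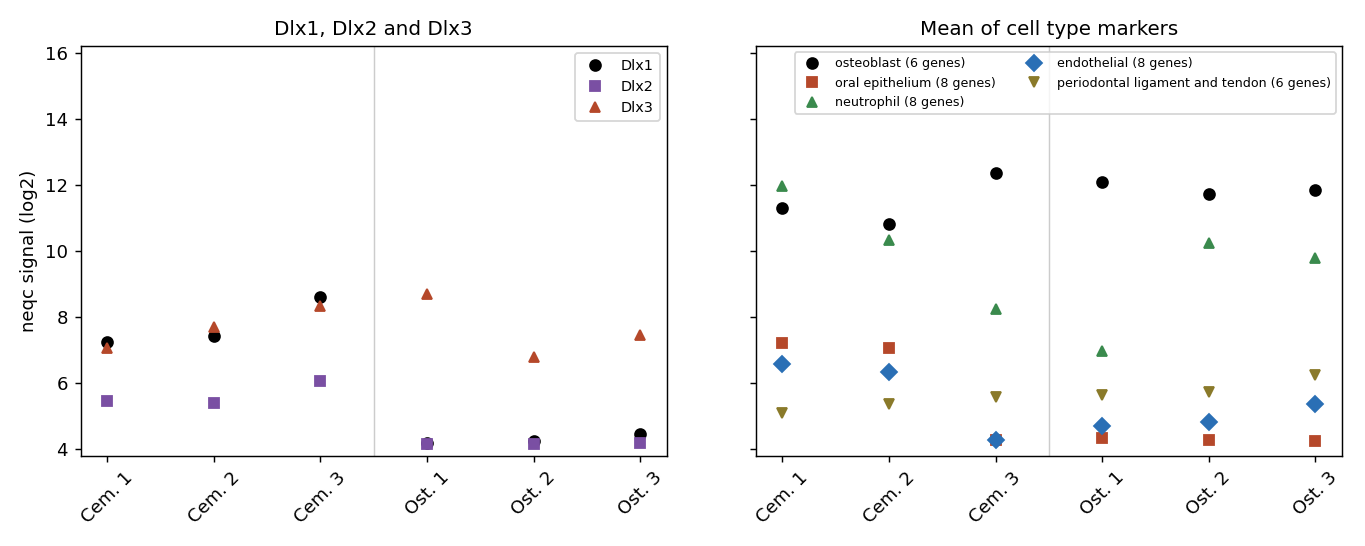
Log2 signal (vertical axis) of Dlx1, Dlx2 and Dlx3 (left panel) and mean log2 signal of 5 sets of cell type markers (right panel) on the 3 cementoblast and 3 osteoblast arrays. Epithelial and endothelial means are 4.26 on cementoblast replicate 3 and between 6.34 and 7.20 on cementoblast replicates 1 and 2. Their part in the Dlx values was not tested.

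Dlx5, an activator of osteoblast differentiation that acts with Dlx6 in lower jaw patterning, was the one member detected in osteoblasts and not in cementoblasts. Its first probe, ILMN_1241949, had log2 signals of 4.60, 4.53 and 4.23 on cementoblast replicates 1, 2 and 3, against 5.55, 4.87 and 4.88 on osteoblast replicates 1, 2 and 3. The groups did not overlap, but the highest cementoblast signal lay only a little below the lowest osteoblast one. The Dlx5 signal was 1.01, 1.01 and 0.970 times the median probe of its array in cementoblasts, against 1.06, 1.15 and 1.26 times in osteoblasts. Detection p-values were 0.0852, 0.0915 and 0.494 in cementoblasts, against 0.00627, 0.00251 and 0.00125 in osteoblasts. Detection on all osteoblast arrays and no cementoblast array occurred for 0.517% of probes with a symbol.

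The Dlx5 difference of -0.65 (SE 0.28, 95% interval -1.30 to 0.01, n = 3 per group) did not pass (limma adjusted p = 0.723), and it turned to 0.27 under scaling to the 75th percentile (adjusted p = 0.732). Under that scaling the Dlx5 signals were 4.99, 4.99 and 4.58 in cementoblasts, against 5.32, 4.31 and 4.12 in osteoblasts, so the groups overlapped. Dlx4, detected on no array, stood under that scaling at 5.02, 4.98 and 4.64 in cementoblasts, against 5.10, 3.38 and 2.64 in osteoblasts, so signals near background shift with it. The direction of Dlx5 held in 18 of 19 other settings and turned under this scaling alone, so it is not independent of the scaling. The second probe, ILMN_2755371, which the platform annotation gives to another Dlx5 transcript, was detected on no array, with log2 signals from 4.17 to 4.32 in cementoblasts and from 4.16 to 4.35 in osteoblasts.

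Dlx4, the neighbour of Dlx3, was detected on no array. Its log2 signals were 4.74, 4.49 and 4.33 on cementoblast replicates 1, 2 and 3, against 4.48, 4.25 and 4.18 on osteoblast replicates 1, 2 and 3 (probe ILMN_1248903), and the groups overlapped. The nearest to detection was cementoblast replicate 1, at a detection p of 0.0627. Fitted with no filter on detection, Dlx4 differed by 0.22 (95% interval -0.14 to 0.58; limma adjusted p = 0.957 over 25697 probes).

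The genes whose profile lay nearest to that of Dlx1 over the 6 arrays were other transcription factors. After each gene's mean was subtracted, the root mean square difference from Dlx1 was 0.36 for Barx1, a homeobox factor of molar mesenchyme, 0.42 for Twist2, a basic helix-loop-helix factor, and 0.44 for Tbx3, a T-box factor, on the log2 scale. The median over all other genes was 1.83. Barx1 stood at 7.80, 8.39 and 8.60 on cementoblast replicates 1, 2 and 3, against 4.30, 4.30 and 4.43 on osteoblast replicates 1, 2 and 3. All 3 passed the limma test over all genes, with adjusted p from 0.00661 for Barx1 to 0.0304 for Twist2, and all 3 were detected on 1 or 2 osteoblast arrays. They were chosen on these arrays for likeness to Dlx1, which passed, so their passing was nearly fixed by the choice and adds no support. Over 19 other settings the call was lost in 5 for Barx1, 11 for Twist2 and 7 for Tbx3, each with its direction kept. The likeness is a description of 6 arrays, on which these 4 genes differ mainly by group. Over all kept probes the arrays did not part cleanly by group. Cementoblast replicate 3 correlated at 0.81 and 0.83 with cementoblast replicates 1 and 2, against 0.90, 0.85 and 0.90 with osteoblast replicates 1, 2 and 3. Dlx2 and Dlx3 spanned 1.91 each on the log2 scale, short of the range of 2 set for this comparison.

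**Figure D4:**
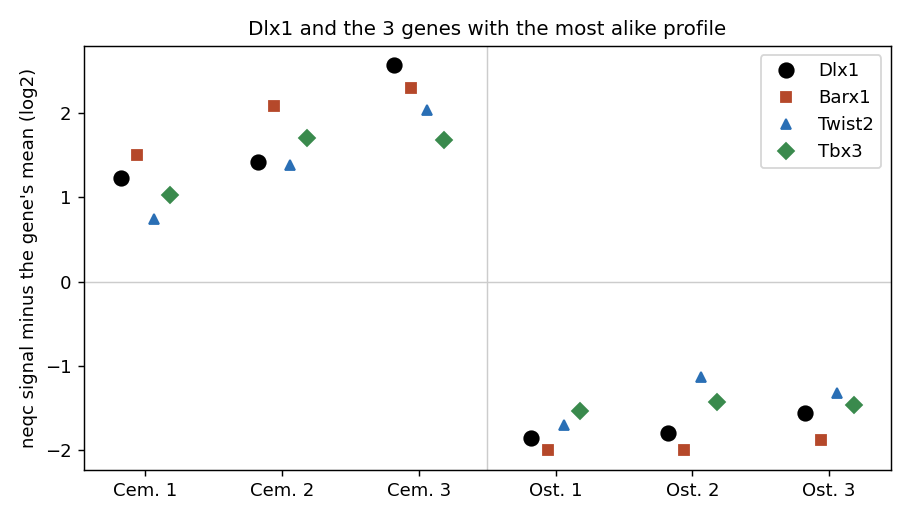
Log2 signal minus the gene's own mean (vertical axis) for Dlx1, Barx1, Twist2 and Tbx3 on the 3 cementoblast and 3 osteoblast arrays. All 4 genes lie above 0 on every cementoblast array and below 0 on every osteoblast array.

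The signals known to act upstream of Dlx genes in the face showed no gene past the test among 11 tested of 15 listed. Over all 8111 genes 0.321% passed, the median difference was -0.02 and 47.5% lay above 0. In this list the median difference was 0.08, with 7 above 0 and 4 below. The smallest p belonged to Ece1, the enzyme that activates endothelin, which averaged 8.29 ± 0.25 in cementoblasts, against 7.36 ± 0.08 in osteoblasts (SD, n = 3 each; limma adjusted p = 0.264). Another Ece1 probe differed by 0.21. Ece1 passed in 1 of 20 other settings, with array weights (adjusted p = 0.0438).

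Among homeobox and adaptor partners of Dlx proteins, 7 of 10 were tested, with a median of -0.03. In cementoblasts 1 was lower and none higher, against 0.173% lower and 0.148% higher over all genes. The list was not tested as a set. The gene past the test was Meis2, a homeobox factor with wide roles in the head, which averaged 4.56 ± 0.32 in cementoblasts, against 7.26 ± 0.24 in osteoblasts (SD, n = 3 each; limma adjusted p = 0.0155). Meis2 was detected on 1 cementoblast array and passed the filter through its osteoblast arrays. Its difference is taken against signals near background and is no measured fold. The Meis2 call was lost in 9 of 19 other settings, each with its direction kept. Among these were no filter on detection (limma adjusted p = 0.0517) and 75th percentile scaling (0.134). It was also lost without cementoblast replicate 1 (adjusted p = 0.0637) or 2 (0.0773) and without osteoblast replicate 2 (0.0903) or 3 (0.0816).

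Of 15 genes known to depend on Dlx factors in the jaw primordia, 5 were tested and most of the rest were below detection. Barx1 alone passed, higher in cementoblasts, as did 0.148% of all genes. The list was not tested as a set. The Barx1 difference was 3.92 (SE 0.28, n = 3 per group; limma adjusted p = 0.00661), and 3.13 at another probe. Barx1 was detected on 1 osteoblast array and passed the filter through its cementoblast arrays. Its difference is taken against signals near background and is no measured fold. The Barx1 call was lost without cementoblast replicate 2 (adjusted p = 0.0773) or osteoblast replicate 3 (0.0602). The other 4 did not pass: Gsc differed by 0.72, Rgs5 by 0.12, Irx5 by -1.39 and Nr2f1 by -1.50, and the list's median was 0.12. Hand1, Hand2, Pitx1 and Alx4, named after their values were seen, were detected on no array.

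Genes of mineralised tissue with Dlx-responsive promoters had no member past the test among 7 tested of 11, against 0.321% of all genes. The median of the list was -0.02. The smallest p was that of Ambn, the enamel matrix gene ameloblastin, which averaged 8.31 ± 1.49 in cementoblasts, against 5.30 ± 0.45 in osteoblasts (SD, n = 3 each; limma adjusted p = 0.182). Ambn passed in 2 of 20 other settings, without cementoblast replicate 3 (3.75, adjusted p = 0.0137) and with array weights (3.76, adjusted p = 0.00840), and with cementoblast replicate 3 alone it differed by 1.52. Dspp, Amelx, Enam and Klk4 were detected on no array. Bglap, the osteocalcin gene behind the reporter used for the sort, differed by -0.78 and did not pass, and by -2.72 and -1.13 at its other probes.

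**Figure D5:**
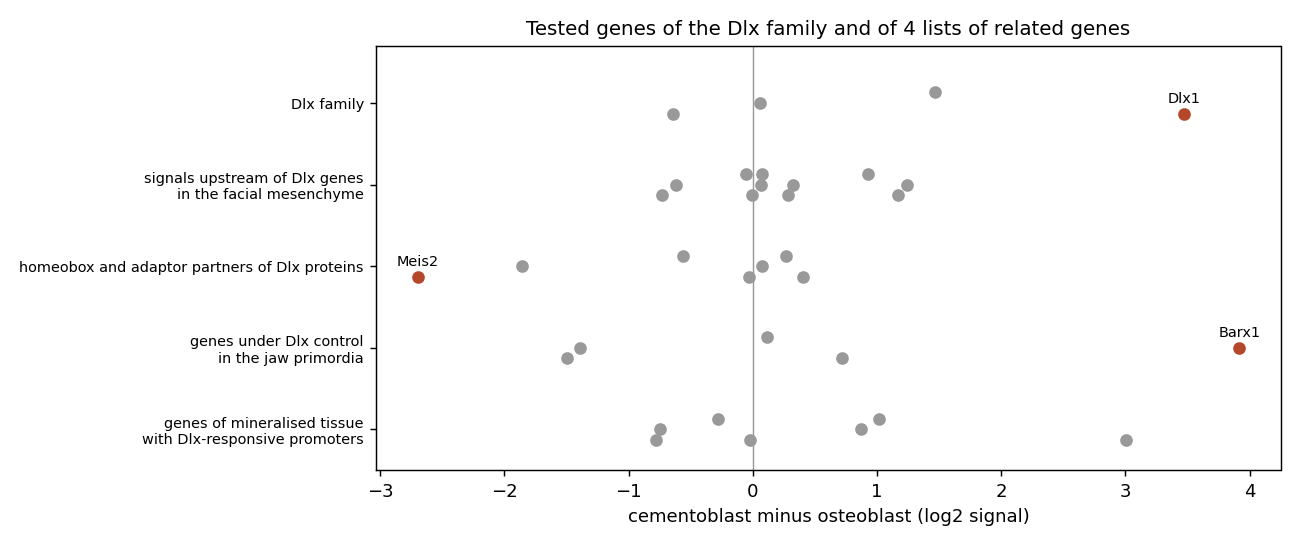
Difference in log2 signal, cementoblast minus osteoblast (horizontal axis), of each tested gene of the Dlx family and of 4 lists of related genes (rows), in red where the adjusted p is under 0.05. Dlx1 and Barx1 are higher and Meis2 is lower in cementoblasts, and the other tested genes did not pass.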

How the data were processed

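The deposited non-normalized table holds the bead signal of each probe as an intensity on a linear scale, and the detection p-value that goes with it, per the file headers. A second deposited table holds the submitters' normalized intensity values; the submitters' processing notes name lumi, with settings not given in the sources used here. Columns were matched to samples by title, and for replicate 3 of each group by tissue code and replicate number.

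Background was corrected and arrays normalized by limma's neqc (limma 3.58.1, R 4.3.3; offset 16, quantiles, log2). Of 25697 probes, 11198 were kept, those detected (p under 0.05) on 3 or more of the 6 arrays, and the brightest of these stood for each of 8111 genes. Differences were fitted with lmFit and eBayes and adjusted by Benjamini-Hochberg. For a fold bound, the undetected group took each array's lowest detected signal, or the gene's signal where that was higher. The number of arrays limits the precision. Fits were also run on simulated data with independent normal noise and no detection limit. That run says nothing about calls on signals near background.

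The members, gene lists, markers and alternatives were chosen with earlier results of these data known. Text names every Dlx probe, for each list the genes past the test or else that with the smallest p, and 3 genes of most alike profile for a member spanning at least 2 on the log2 scale.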

Additional observations from a re-analysis of the deposited data

How the results depend on the processing

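Dlx1 kept its direction in all 19 alternatives and fell short of the threshold in 10, Dlx2 kept it in 19 and passed in 3, Dlx3 turned in 5 of 20 and Dlx5 in 1 of 19; no cause was tested. The main counts were 12 genes higher and 14 lower in cementoblasts. With the submitters' values they were 5 and 9, with Dlx1 at 2.10 and Dlx3 at -0.053. With no background correction 5 were higher and Dlx1 was 1.41. Under 75th percentile scaling 0 were higher (224 at an unadjusted p under 0.05 in limma) and 2 lower, Dlx1 was 3.09, Dlx3 was -0.30 and Dlx5 was 0.27, and 0 partner genes and 0 jaw genes passed. With no filter on detection 4 and 4 passed among 16593 genes, Dlx1 was 3.47 (adjusted p = 0.109) and 0 partner genes passed. With detection on all 6 arrays, which leaves out Dlx1, Dlx2 and Dlx5, 1 and 5 passed, with 0 partner and 0 jaw genes. Trend and robust variance gave 23 lower. Array weights gave 111 and 88, Dlx2 at 1.31, and 1 upstream gene higher, 2 partner genes lower, 1 jaw gene lower and 1 mineralised tissue gene higher. With the replicate number as a block 0 and 0 passed (291 and 277 at an unadjusted p under 0.05 in limma), Dlx1 stayed at 3.47 (adjusted p = 0.0690), and 0 partner and 0 jaw genes passed. The main test did not pair the samples by replicate number. Deviations from the group means correlated at -0.36, 0.36 and 0.09 for numbers 1, 2 and 3. With 3 arrays per group these values cannot decide whether samples were paired. The age range matched between the tissues in replicate 2 (5 to 6 weeks) and replicate 3 (6 to 7 weeks), but not in replicate 1. The sample titles carry another number, which replicates 2 and 3, but not 1, share between the tissues, and the labels do not say what it marks. With this title number as a random block the counts were 38 and 36, Dlx2 was 1.49 and 2 partner genes were lower.

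With each array left out in turn, 0 to 102 genes were higher and 0 to 69 lower. Dlx1 lay between 3.06 and 3.72, Dlx2 between 1.25 and 1.59, Dlx3 between -0.37 and 0.58 and Dlx5 between -0.76 and -0.42. Partner genes lower ran from 0 to 1, jaw genes higher from 0 to 1 and lower from 0 to 2, and mineralised tissue genes higher from 0 to 1. Dlx3 was -0.25 without cementoblast replicate 3, -0.37 without osteoblast replicate 2 and -0.05 without osteoblast replicate 3. Chosen after seeing the data, 2 settings are among the alternatives counted above. Cementoblast replicate 3 alone against the osteoblasts, with 1 array in a group, gave Dlx1 at 4.30. Replicates 2 and 3 of both groups gave 0 and 0 (247 and 255 at an unadjusted p under 0.05 in limma), with Dlx1 at 3.66 (adjusted p = 0.177) and 0 partner and 0 jaw genes. Detection limits Dlx2, Dlx4 and Dlx5, whose signals lay near the negative controls.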
